A study of Mus musculus with 4 samples.

Results

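The plasminogen activation system and the tissue inhibitors of metalloproteinases (TIMPs) were examined as 9 genes, Plau, Plaur, Plat, Serpine2, Serpinb2, Timp1, Timp2, Timp3 and Timp4, in lung tumours of CD109-deficient mice. Every array probe whose accession belongs to one of these genes was taken, which gave 13 of 56605 probes and 9 of 23787 genes with a named probe. Of the 9 genes, 4 had 2 probes and 5 had 1. All 13 probes passed the filter on dim probes, which asked for signal well above background in both samples of 1 genotype or of the other.

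There were 2 samples of CD109-/- KP lung tumours, replicate 1 male and replicate 2 female, and 2 samples of CD109+/+ KP lung tumours, both female, all C57BL/6J. KP mice are a model of lung adenocarcinoma in which Cre recombinase starts the tumours, and both genotypes carried that model. An adenovirus with Cre, given intratracheally, had started the tumours 88 to 92 days before the RNA was taken. The labels give neither the age of the mice, the promoter that drove Cre, nor whether several tumours of a mouse were pooled. A mouse is named for each sample, but separate animals are not stated for replicates, and p-values therefore measure no more than the spread of these samples. Each RNA was hybridised to 1 single-colour Agilent array, and a value is log2 of the processed signal minus that array's 75th percentile. A difference is the CD109-/- mean minus the CD109+/+ mean.

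The single named Cd109 probe read -7.98 and -7.87 in CD109-/- tumours, not well above background on either array, against -3.70 and -4.66 in CD109+/+ tumours. It followed the labels, and whether the deletion removed the part of the transcript under the probe was not examined. All 7 lung tumour epithelium markers, among them the surfactant gene Sftpc and the lung lineage factor gene Nkx2-1, were well above background on all 4 arrays. Across probes, Pearson r was lowest for CD109-/- replicate 1, the only male, with CD109-/- replicate 2 (0.968) and CD109+/+ replicate 2 (0.968). The females CD109-/- replicate 2 and CD109+/+ replicate 1 were hardly higher (0.969), whereas CD109-/- replicate 2 and CD109+/+ replicate 2 had r = 0.982. With so few arrays precision is limited throughout, and an exact two-sided permutation test of 2 against 2 cannot give a p below 0.333.

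Plasminogen is the circulating precursor of plasmin, a broad protease that dissolves fibrin, degrades matrix glycoproteins and activates several matrix metalloproteinases (MMPs). It is cut to plasmin by urokinase (uPA, from Plau), which is held at the cell surface by its receptor uPAR (from Plaur), and by tissue plasminogen activator (tPA, from Plat). Inhibitors of the serpin family stop the activators, and TIMPs bind MMPs and related ADAM and ADAMTS proteases. In tumours these genes are used by cancer cells, fibroblasts, endothelium and infiltrating myeloid cells alike.

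Upstream sequence was taken from RefSeq (build GRCm38.p6), which held an entry for 7 of the 9 genes. The 250 bases before the annotated start are shown for the receptor gene and Timp1, whose signals were both highest in CD109-/- replicate 1, for the activator inhibitors, and for Timp2, the TIMP gene whose 2 probes both separated the genotypes. Capitals mark matches, sought on both strands, to the AP-1 motif TGANTCA, the GC box GGGCGG and the TATA motif TATAAA. No match of one motif overlapped a match of another.
Plaur (chr7:24462233-24462482, plus strand): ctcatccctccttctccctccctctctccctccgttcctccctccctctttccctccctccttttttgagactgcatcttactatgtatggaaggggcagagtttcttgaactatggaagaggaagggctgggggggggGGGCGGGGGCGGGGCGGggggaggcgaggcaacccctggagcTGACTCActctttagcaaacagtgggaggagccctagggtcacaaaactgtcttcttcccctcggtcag
Timp1 (chrX:20869916-20870165, plus strand): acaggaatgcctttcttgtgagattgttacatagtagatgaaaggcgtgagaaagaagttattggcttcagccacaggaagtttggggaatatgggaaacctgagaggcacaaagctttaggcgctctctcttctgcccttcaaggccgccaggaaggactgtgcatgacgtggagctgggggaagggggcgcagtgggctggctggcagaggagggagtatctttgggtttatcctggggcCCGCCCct
Serpinb2 (chr1:107511173-107511422, plus strand): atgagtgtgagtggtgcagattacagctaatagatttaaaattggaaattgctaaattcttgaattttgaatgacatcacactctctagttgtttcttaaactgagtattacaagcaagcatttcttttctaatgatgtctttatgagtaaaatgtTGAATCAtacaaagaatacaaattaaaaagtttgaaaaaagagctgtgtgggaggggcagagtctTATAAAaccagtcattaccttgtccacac
Serpine2 (chr1:79858666-79858915, minus strand): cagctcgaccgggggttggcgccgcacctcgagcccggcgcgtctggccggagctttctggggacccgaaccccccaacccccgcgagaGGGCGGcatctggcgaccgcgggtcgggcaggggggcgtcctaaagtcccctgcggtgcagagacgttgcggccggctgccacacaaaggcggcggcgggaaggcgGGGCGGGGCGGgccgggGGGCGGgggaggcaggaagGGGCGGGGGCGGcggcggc
Timp2 (chr11:118355412-118355661, minus strand): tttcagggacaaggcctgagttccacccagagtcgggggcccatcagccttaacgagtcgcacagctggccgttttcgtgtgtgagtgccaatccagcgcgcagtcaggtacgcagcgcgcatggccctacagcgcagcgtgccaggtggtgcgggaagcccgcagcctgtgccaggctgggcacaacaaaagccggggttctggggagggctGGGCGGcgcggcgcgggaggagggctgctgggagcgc
The Plaur sequence held 1 AP-1 match, TGACTCA, 69 bases before the start, and 3 GC boxes. Serpinb2 held 1 AP-1 match, TGAATCA, 94 bases before the first of its annotated starts and a TATAAA 29 bases before it. Serpine2 held 6 GC boxes, while Timp1 and Timp2 held 1 each. Over all 32851 annotated upstream sequences of the same length, 6.75% held the AP-1 motif, 32.7% a GC box and 12.4% a TATAAA. These matches describe the letters of the sequence and are no evidence of binding.

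**Figure D1:**
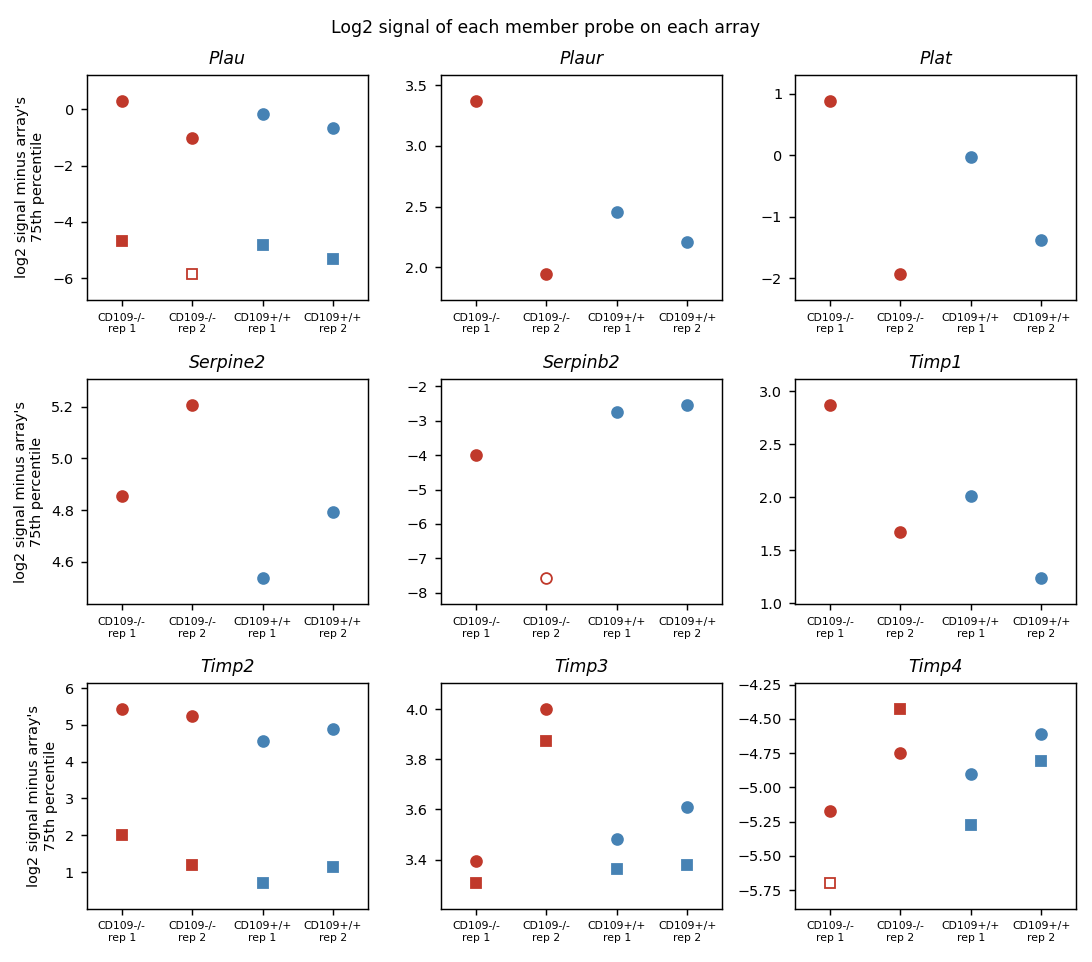
Log2 signal minus the array's 75th percentile (y axis) of every member probe on the 4 arrays (x axis, CD109-/- in red and CD109+/+ in blue). Each point is 1 array, circles are the brighter and squares the dimmer probe of a gene, and open symbols were not well above background. Plau, Plaur and Plat were highest in CD109-/- replicate 1 and lowest in CD109-/- replicate 2, whereas both Timp2 probes were higher in both CD109-/- tumours than in either CD109+/+ tumour.

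No member was called between the genotypes. Limma's adjusted p over all 35776 tested probes was under 0.05 for 0 of the 13 member probes and for 0.00% of all probes, and the members' adjusted p-values ran between 0.710 and 0.997. At an unadjusted p under 0.05 there was 1 member probe, that of Serpinb2, against 6.81% of all tested probes (3.87% higher and 2.94% lower in CD109-/- tumours). The member count was 5 without CD109-/- replicate 2, 1 without CD109-/- replicate 1 and 0 without either CD109+/+ replicate. Member values did not overlap between the genotypes in 4 of 13 probes, 3 of them higher and 1 lower in CD109-/- tumours, against 37.7% of all tested probes (16.5% higher and 21.2% lower), a share close to that background. The median difference of the 13 probes was 0.18 and that of all tested probes -0.05.

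For most members the 2 arrays of a genotype differed more than the genotypes did. In 11 of 13 probes the larger of the gaps between the arrays of one genotype exceeded the difference between genotype means. Only the Serpine2 probe and the brighter Timp2 probe were the other way round. The share of all tested probes with such an excess was not computed, so whether the count is particular to the members is not known. The median absolute genotype difference was 0.22 over the member probes and 0.25 over all tested probes. The median absolute gap over the member probes was 1.18 between the CD109-/- tumours and 0.33 between the CD109+/+ tumours, against 0.35 and 0.28 over all tested probes. The CD109-/- pair is also the pair of unlike sex, and sex and tumour cannot be told apart there.

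Among the activator genes, Plau and Plat had gaps well beyond their genotype differences. For Plau, which encodes urokinase, the brighter probe read 0.31 and -1.03 in CD109-/- tumours, against -0.15 and -0.65 in CD109+/+ tumours. Both CD109+/+ values lay inside the range of the CD109-/- values. Its difference was 0.04 ± 0.50 (SE, n = 2 per genotype) with a 95% interval of -1.25 to 1.34 and limma's adjusted p = 0.994. The dimmer Plau probe had the same order, with -4.68 and -5.86 in CD109-/- tumours, the second of these not well above background, against -4.84 and -5.33 in CD109+/+ tumours, and a difference of -0.19 ± 0.46. Plat, which encodes tPA, had the widest interval among the members well above background on every array. Its probe read 0.89 and -1.93 in CD109-/- tumours, against -0.03 and -1.38 in CD109+/+ tumours. Replicate 1 was thus the higher one in both genotypes, by 2.82 in CD109-/- and by 1.34 in CD109+/+ tumours. The genotype difference of Plat was 0.18 ± 1.01, with a 95% interval of -2.41 to 2.78 (limma's adjusted p = 0.984).

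Plaur, which encodes the urokinase receptor, read 3.38 and 1.94 in CD109-/- tumours, against 2.45 and 2.21 in CD109+/+ tumours. The order of the arrays was that of Plau and Plat, with CD109-/- replicate 1 at the top, then CD109+/+ replicates 1 and 2, and CD109-/- replicate 2 at the bottom. This order held for 4 of 13 member probes, 2 of Plau and 1 each of Plaur and Plat, and for 6.07% of all tested probes. The order was read from these same probes, so the counts describe it and are no test. The Plaur difference was 0.33 ± 0.51 with a 95% interval of -0.98 to 1.64 (limma's adjusted p = 0.923). The direction in these 3 genes depended on which arrays were included. Without CD109-/- replicate 1, which leaves females only, the differences were -0.62 and -0.77 for the Plau probes, -0.39 for Plaur and -1.23 for Plat. Without CD109-/- replicate 2 they were 0.71 and 0.40 for Plau, 1.05 for Plaur and 1.60 for Plat. Leaving out a CD109+/+ array also turned the sign of both Plau probes and of Plat. The brighter Plau probe stood at -0.21 and Plat at -0.49 without CD109+/+ replicate 2, and the dimmer Plau probe at 0.060 without CD109+/+ replicate 1. An activator or receptor difference shared by both CD109-/- tumours was therefore not seen on these arrays.

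**Figure D2:**
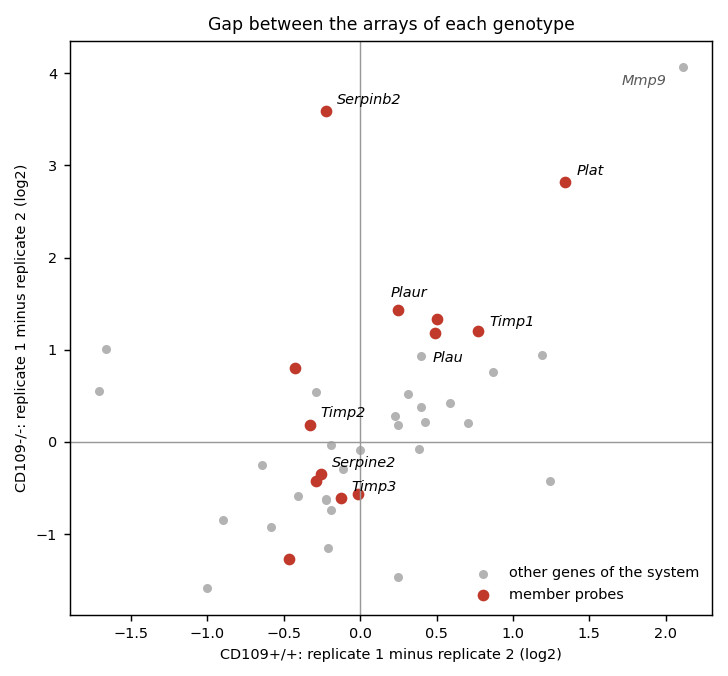
Gap between replicate 1 and replicate 2 on the log2 scale in CD109-/- tumours (y axis) and in CD109+/+ tumours (x axis). Red points are the 13 member probes and grey points 29 of the 30 measured other genes of the system. Plau, Plaur, Plat and Timp1 lie above 0 on both axes, and Serpinb2 has a gap of 3.59 in CD109-/- tumours and of -0.22 in CD109+/+ tumours.

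The serpin genes among the members went opposite ways. Serpinb2 encodes plasminogen activator inhibitor 2, a largely intracellular serpin that can inhibit urokinase. Its probe read -3.99 and -7.58 in CD109-/- tumours, against -2.76 and -2.54 in CD109+/+ tumours. Both CD109-/- values were below both CD109+/+ values. The one in replicate 2 was not well above background, so that it does not measure how low the signal was there. The difference was -3.14 ± 1.16 with a 95% interval of -6.11 to -0.17, an unadjusted p = 0.0418 and limma's adjusted p = 0.710. Its size rested on the dim value. With values not well above background raised to the lowest value well above background on that array (-5.65 for CD109-/- replicate 2), an alternative chosen after the data were seen, the Serpinb2 difference was -2.17. It was -1.11 with normexp background correction, -1.34 without CD109-/- replicate 2 and -4.93 without CD109-/- replicate 1. Leaving out an array could not turn its direction, because the genotypes did not overlap. Serpinb2 was lower in CD109-/- tumours under every alternative that was run on it, and its adjusted p passed 0.05 under none of them.

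Serpine2 encodes protease nexin-1, an extracellular serpin that inhibits thrombin, urokinase and tPA. Its probe read 4.86 and 5.21 in CD109-/- tumours, against 4.54 and 4.79 in CD109+/+ tumours, without overlap. The difference of 0.37 ± 0.26 had a 95% interval of -0.31 to 1.04 and limma's adjusted p = 0.825. Leaving out each array in turn gave 0.19 to 0.54.

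Among the TIMP genes, Timp2 had the smallest unadjusted p. TIMP-2 inhibits MMPs and, together with the membrane protease from Mmp14, takes part in the activation of pro-MMP2. The brighter Timp2 probe read 5.43 and 5.25 in CD109-/- tumours, against 4.55 and 4.88 in CD109+/+ tumours. The dimmer one read 2.00 and 1.20 in CD109-/- tumours, against 0.72 and 1.14 in CD109+/+ tumours. On both probes the lower CD109-/- value lay above the higher CD109+/+ value, narrowly so on the dimmer one. The differences were 0.62 ± 0.25 and 0.67 ± 0.36, or 1.54-fold (95% interval 0.98 to 2.42) and 1.59-fold (0.83 to 3.04), with limma's adjusted p = 0.739 and 0.785. Leaving out each array in turn gave 0.46 to 0.79 for the brighter probe and 0.27 to 1.07 for the dimmer.

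Timp1 encodes a secreted inhibitor of many MMPs that also signals through CD63. Its probe read 2.87 and 1.67 in CD109-/- tumours, against 2.01 and 1.24 in CD109+/+ tumours. In each genotype replicate 1 was higher, and the genotypes overlapped. The Timp1 mean was 2.27 ± 0.85 in CD109-/- and 1.62 ± 0.55 in CD109+/+ tumours (SD, n = 2 each), and the difference was 0.65 ± 0.50 with a 95% interval of -0.64 to 1.94 (limma's adjusted p = 0.840). Without CD109-/- replicate 1 the Timp1 difference was 0.05, and without CD109-/- replicate 2 it was 1.25.

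Timp3 encodes the matrix-bound TIMP, which also inhibits ADAM17. Its probes gave the same picture, with 3.39 and 4.0 on the first and 3.31 and 3.87 on the second in CD109-/- tumours, against 3.48 and 3.61 and then 3.36 and 3.38 in CD109+/+ tumours. Here CD109-/- replicate 2 was the highest array and replicate 1 the lowest. The Timp3 differences were 0.15 ± 0.30 and 0.22 ± 0.29 (95% intervals -0.61 to 0.91 and -0.51 to 0.96). Timp4 encodes a TIMP with a restricted tissue range, and both its probes were dim. The first read -5.17 and -4.75 in CD109-/- tumours, against -4.90 and -4.61 in CD109+/+ tumours, and the second -5.69 (not well above background) and -4.43 in CD109-/- tumours, against -5.27 and -4.80 in CD109+/+ tumours. The Timp4 differences were -0.20 ± 0.28 and -0.02 ± 0.48, and the sign of the second was positive with quantile normalization (0.039) and with scaling to the median (0.021). In both genes replicate 2 was the higher array of each genotype, the reverse of Plau, Plaur, Plat and Timp1.

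**Figure D3:**
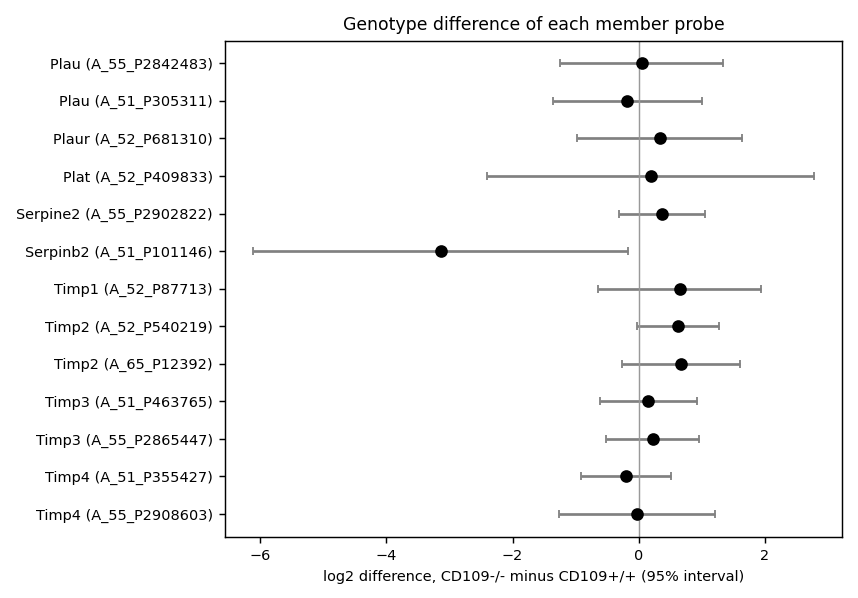
Difference between CD109-/- and CD109+/+ tumours on the log2 scale (x axis) for each member probe (y axis), with limma's 95% intervals (n = 2 arrays per genotype, not adjusted for multiple tests). The interval of Serpinb2, -6.11 to -0.17, leaves out 0, and the other 12 include it.

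The other genes of the system were read from a fixed list of 35, of which 30 were tested by their brightest probe. Serpina5, F12, Fgb, Adamts5 and Tfpi2 failed the filter on dim probes. By limma's adjusted p, 0 of 30 passed 0.05, as did 0.00% of all 16444 genes. At an unadjusted p under 0.05 there were 6, 5 of them higher and 1 lower in CD109-/- tumours, against 7.41% of all genes (5.00% higher and 2.41% lower). Values were higher in CD109-/- tumours for 19 of 30, against 50.3% of all genes, and the median difference was 0.22, against 0.00 over all genes.

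Plasminogen itself, Plg, was dim in these tumours. Its probe read -6.47 and -6.22 in CD109-/- tumours, not well above background on either array, against -5.25 and -4.60 in CD109+/+ tumours. This bounds the CD109+/+ signal of Plg as at least 1.74-fold higher than the CD109-/- one, with limma's adjusted p = 0.506. Of its binding proteins, the annexin A2 complex genes Anxa2 and S100a10 differed by 0.13 ± 0.39 and 0.10 ± 0.27, and the receptor gene Plgrkt by -0.05 ± 0.33. For Anxa2, S100a10 and Plgrkt the genotypes overlapped.

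Among the other serpin genes, Serpinf2, which encodes the plasmin inhibitor alpha-2-antiplasmin, read -2.56 and -3.10 in CD109-/- tumours, against -3.64 and -3.35 in CD109+/+ tumours, a difference of 0.67 ± 0.29. Serpini1, which encodes neuroserpin, an inhibitor of tPA, differed by 1.22 ± 0.21 (limma's unadjusted p = 0.00319, limma's adjusted p = 0.503). Its signals were low, with -3.90 and -3.87 in CD109-/- tumours, against -5.20 and -5.01 in CD109+/+ tumours.

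Genes around these proteases on the cell surface and in plasma were mixed. Thbd encodes thrombomodulin, the endothelial cofactor of thrombin, and read 1.70 and 2.33 in CD109-/- tumours, against 0.32 and 0.55 in CD109+/+ tumours. Its difference was 1.58 ± 0.30 (limma's adjusted p = 0.506). Vtn, for the matrix protein vitronectin that binds uPAR, differed by 0.83 ± 0.30 (limma's adjusted p = 0.656) from low signals of -4.65 and -4.03 in CD109-/- tumours, against -5.28 and -5.06 in CD109+/+ tumours. The endocytic receptor genes Lrp1 and Mrc2, which clear protease-serpin complexes and collagen, differed by 0.45 ± 0.32 and 0.65 ± 0.44, and a further Mrc2 probe by -0.12.

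Among targets and partners of TIMPs, the gelatinase gene Mmp2 and the stromelysin gene Mmp3 were the 2 of 10 with an unadjusted p under 0.05. Mmp2 read -1.12 and -1.34 in CD109-/- tumours, against -2.15 and -2.57 in CD109+/+ tumours, a difference of 1.13 ± 0.26 (limma's adjusted p = 0.509). Mmp3 read -0.46 and -1.46 in CD109-/- tumours, against -4.26 and -2.60 in CD109+/+ tumours (2.47 ± 0.68, limma's adjusted p = 0.559). Mmp2, like Timp2, did not overlap between the genotypes, while Mmp14 read -0.62 and -1.56 in CD109-/- tumours, against 0.31 and -0.88 in CD109+/+ tumours, with overlap. Mmp9 had the widest gaps in the list, with -0.61 and -4.68 in CD109-/- tumours, against -2.92 and -5.03 in CD109+/+ tumours, replicate 1 again being the higher one in both. The Mmp9 difference was 1.33 ± 1.54 on this probe and 2.96 on a further probe. Reck, for a membrane-anchored MMP inhibitor, differed by 0.80 ± 0.41, Adam17 by 0.03 ± 0.21 and Cd63 by -0.21 ± 0.23.

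**Figure D4:**
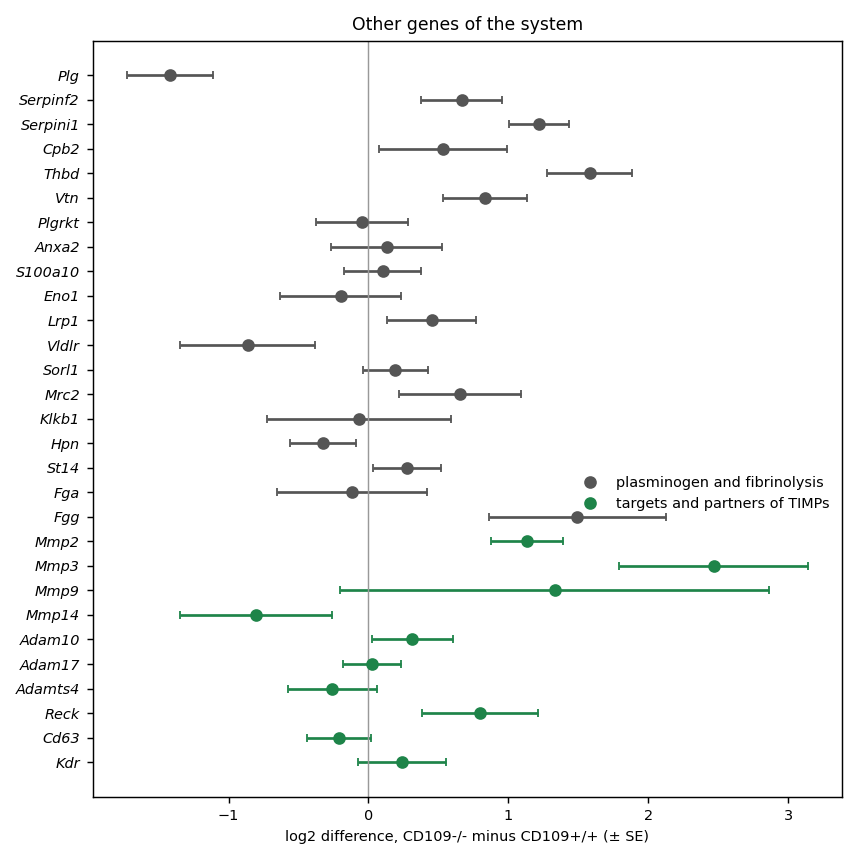
Difference between CD109-/- and CD109+/+ tumours on the log2 scale (x axis, ± SE, n = 2 arrays per genotype) for 29 of the 30 measured other genes of the system (y axis). Thbd (1.58), Mmp2 (1.13) and Mmp3 (2.47) lie to the right and Plg (-1.42, not well above background in CD109-/- tumours) to the left, and none passed limma's adjusted threshold.

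Tumour tissue holds several cell types that use these genes, and in bulk RNA fewer cells of a type and less RNA per cell cannot be told apart. Of 9 cell type marker lists, 7 had a higher mean on both CD109-/- arrays than on either CD109+/+ array. The mean of the 7 macrophage markers was 1.23 and 1.20 in CD109-/- tumours, against 0.04 and 0.22 in CD109+/+ tumours. Of these, 7 of 7 were higher without overlap, as were 16.5% of all tested probes. Cd163 was not well above background on either CD109+/+ array (-7.14 and -6.26). The CD109+/+ macrophage means therefore rest partly on readings too dim to measure the signal, and the size of that contrast is uncertain. For the 7 fibroblast markers the mean was 1.66 and 1.72 in CD109-/- tumours, against 0.87 and 0.80 in CD109+/+ tumours, and 5 of 7 were higher without overlap, while Col1a1 and Pdgfrb overlapped. Timp2 was likewise higher in CD109-/- tumours, and the part of these cell types in the Timp2 values was not tested. The part of macrophages and fibroblasts in the replicate gaps of Plau, Plaur, Plat and Timp1 was not tested either. The 6 neutrophil markers had a mean of 1.79 and 1.37 in CD109-/- tumours, against 1.09 and 0.32 in CD109+/+ tumours. S100a8, S100a9, Ly6g and Cxcr2 were higher in replicate 1 of both genotypes. Csf3r was lower in replicate 1 of both, and Retnlg was lower in replicate 1 of the CD109-/- tumours (-1.99 and -0.48). Without overlap, 3 of the 6 were higher and 1, Csf3r, lower in CD109-/- tumours. The part of neutrophils in the replicate gaps of Plau, Plaur, Plat and Timp1 was not tested. Endothelial markers had means of -0.28 and 0.06 in CD109-/- tumours, against -0.43 and -0.67 in CD109+/+ tumours, and 3 of 5 were higher without overlap. Smooth muscle markers had means of 0.57 and 0.24 in CD109-/- tumours, against -0.04 and -0.25 in CD109+/+ tumours. T cell markers had means of -0.79 and -0.82 in CD109-/- tumours, against -1.76 and -1.53 in CD109+/+ tumours. In each of these lists 3 of 4 measured markers were higher without overlap, while Acta2 and Cd4 had lower means in CD109-/- tumours, with overlap. The mesothelial list had means of -1.49 and -2.29 in CD109-/- tumours, against -3.64 and -3.38 in CD109+/+ tumours. Only 1 and 2 of its 4 markers were well above background in CD109+/+ replicates 1 and 2. The CD109+/+ means therefore rest partly on readings too dim to measure the signal, and the size of the contrast is uncertain. Of the 4 markers, 3 were higher without overlap, while Msln overlapped. The epithelial and B cell lists were the other two, with overlapping means.

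**Figure D5:**
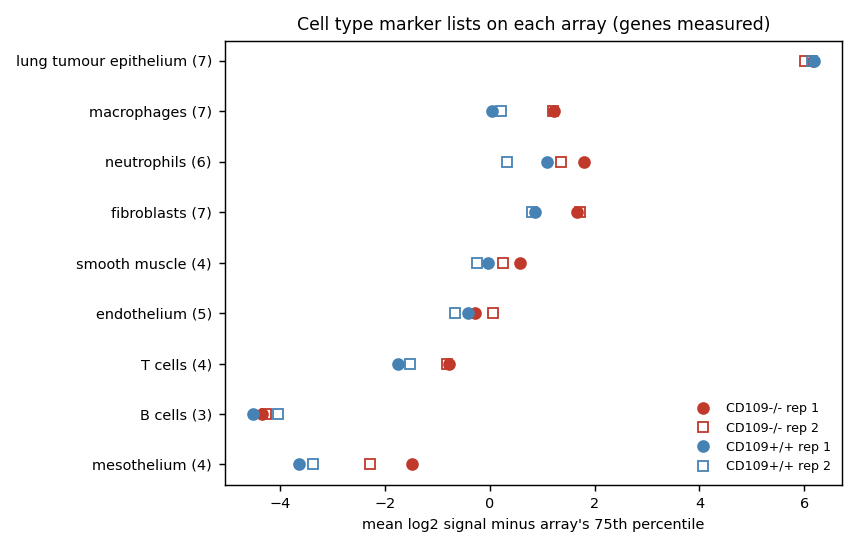
Mean log2 signal minus the array's 75th percentile (x axis) of the measured markers of each cell type (y axis, number of genes in parentheses) on the 4 arrays. Red symbols are CD109-/- and blue symbols CD109+/+ tumours, filled for replicate 1 and open for replicate 2. Means were higher on both CD109-/- arrays for 7 of the 9 lists, the epithelial and B cell lists being the exceptions, and epithelial means lay between 6.02 and 6.19 on all 4.

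The gene most like each member across the 4 arrays was sought among 12674 genes by the root mean square distance of values centred on their own mean. It was Erfe for Plau (distance 0.02), Taf4b for Plaur (0.05), Lrrc26 for Plat (0.11), Ppp1r18 for Timp1 (0.03), Nck1 for Timp2 (0.02), Cobl for Timp3 (0.02), Dhx34 for Timp4 (0.01) and Tmem127 for Serpine2 (0.01). Such nearness is common with 4 arrays, and the distance also depends on how widely a member varied. The root mean square of the centred values was 2.02 for Serpinb2 and 0.21 for Timp4. Within a distance of 0.2 there were 217 genes for Plau, 105 for Plaur, 67 for Timp1, 6 for Plat and 2172 for Timp4. Serpinb2 had none, and its nearest gene, Agr2, which encodes a disulphide isomerase of secretory epithelium, lay at 0.39. Agr2 read 1.41 and -1.14 in CD109-/- tumours, against 2.91 and 3.11 in CD109+/+ tumours, so that CD109-/- replicate 2 was the lowest array for both genes. The Serpinb2 value there was not well above background, so its distances rest partly on a reading too dim to measure the signal.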

How the data were processed

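RNA of 4 lung tumour samples (100 ng each, per the labels' protocols) was labelled with Cy3. Per the file headers, the deposited files come from Agilent's Feature Extraction software (12.1.0.3), use an array design annotated on mm9 and hold linear intensity values, the processed signal being background-subtracted, floored and not scaled between arrays. A further deposited table holds these intensity values times 1 constant per array, for an unstated reason. Its column medians were 59.5 and 69.2 (CD109-/-) and 58.8 and 76.1 (CD109+/+), and it served as an alternative. All arrays lay on 1 slide scanned on 1 day, so neither could act as a batch. The CD109+/+ arrays lay at positions 1_1 and 1_2 and the CD109-/- arrays at 1_3 and 1_4, so position and genotype cannot be told apart.

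Control spots and outlier spots (58 to 73 per array) were dropped, spots of a probe averaged as log2, and each array's 75th percentile (677 and 688 for CD109-/-, 557 and 669 for CD109+/+) subtracted. Between 64.3% and 67.0% of spots were well above background and 0 saturated. Probes were named by unversioned accession through a RefSeq table of GRCm38.p6 (34566 of 56605 probes), without using its gene coordinates. A bound sets the bright genotype's mean against the dim one's, each dim array at no less than its lowest value well above background.

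The 2 genotypes were tested two-sided with limma 3.58.1 (lmFit, eBayes; R 4.3.3; 2 residual degrees of freedom) over 35776 probes or 16444 genes, each gene by its brightest tested probe, with Benjamini-Hochberg adjustment. The procedure was tested on simulated data. Members, lists, tests and alternatives were chosen with earlier results of these data known. Named genes are all members, Cd109, 15 genes fixed from the list of the system (1 is not reported here), its genes at an unadjusted p under 0.05, and the gene nearest to each member. Alternatives were normexp (offset 50, median in place of the planned mean signals), 2 other scalings, the authors' deposited values, 2 other filters on dim probes, a variance trend, a replicate block, a sex term, gene means over probes, leaving out each array and, after the data were seen, a floor for dim spots.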

Additional observations from a re-analysis of the deposited data

How the results depend on the processing

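Over 14 alternatives, 160 of 179 refitted member differences kept their direction, 19 turned, and 0 passed the adjusted threshold. Other filters on dim probes, the variance trend and the replicate block left each difference unchanged by construction, and the authors' deposited values nearly so. The sex term equals leaving out the male array, so the 160 kept directions are not independent agreements. The labels do not say whether equal replicate numbers mark a shared batch, and the samples were not taken as paired. Deviations of same-numbered arrays from their genotype means correlated at 0.35 across 35769 probes. With the replicate block 2 member probes had an unadjusted p under 0.05 in place of 1, Serpinb2 and Timp1, and 0 of all probes passed the adjusted threshold. That count of member probes was 2 with normexp, 2 with the mean-variance trend, 0 with quantile normalization and 0 among probes well above background on all arrays, where Serpinb2 was not tested. Leaving out each array in turn, it ranged between 0 and 5 (5 without CD109-/- replicate 2), and the count of all probes past the adjusted threshold between 0 and 2 (2 without CD109-/- replicate 2). The count of other genes of the system at an unadjusted p under 0.05 lay between 4 and 8.

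Leave-one-out differences ranged between -0.62 and 0.71 and between -0.77 and 0.40 for the Plau probes, -0.39 and 1.05 for Plaur, -1.23 and 1.60 for Plat, -0.15 and 0.45 and then -0.062 and 0.50 for the Timp3 probes, and -0.42 and 0.011 and then -0.66 and 0.61 for the Timp4 probes. With sex as a covariate, which here equals leaving out the male array, the difference was -0.62 for Plau, -0.39 for Plaur, -1.23 for Plat and 0.011 and 0.61 for the Timp4 probes. The second Timp4 probe stood at 0.039 with quantile normalization and 0.021 with scaling to the median. Serpinb2, Serpine2, Timp1 and Timp2 kept their direction in every alternative run on them. For Serpinb2, Serpine2 and Timp2, whose values did not overlap between the genotypes, leaving out an array could not turn the direction. Beyond the alternatives' own construction the cause of these shifts was not tested. Plg, Timp4, the dimmer Plau probe and, in CD109-/- replicate 2, Serpinb2 lay near or under background, which limits their values.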
